A study of Mus musculus with 6 samples.

Results

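The lysosomal gene set described here holds 32 genes for lysosomal hydrolases, their cofactors and lysosomal membrane proteins, taken by symbol from a list of known lysosomal genes. It was read in bulk liver RNA sequencing of 6 male mice. The 32 genes have 181 annotated transcripts in the files, out of 35082 genes with a transcript there, and 31 of them were among the 12497 genes with enough counts to test. The 3 control animals were G3BP1f/f, with floxed G3bp1 and no Cre, and the 3 knockout-labelled animals were Alb-cre; G3BP1f/f, in which Cre under the albumin promoter acts in hepatocytes and the other liver cells keep the gene. Both groups carried the floxed alleles and were fed a high-fat diet for 20 weeks from 8 weeks of age. No animals on another diet and none with Cre but unfloxed G3bp1 were analysed here, so diet is shared by both groups and Cre goes with the knockout label.

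Lysosomes are acidic compartments that break down protein, lipid, glycogen and glycans delivered by endocytosis and autophagy. A proton pump acidifies them, soluble hydrolases do the digestion, mostly after being tagged with mannose 6-phosphate and sorted from the Golgi, and heavily glycosylated membrane proteins line the inside of the membrane. The transcription factors TFEB and TFE3 bind an E-box with the core CACGTG near the start of many of these genes, within a longer palindrome known as the CLEAR element. In liver the set matters for the handling of lipid droplets, cholesterol esters and glycogen, and the same genes are also expressed by Kupffer cells. G3BP1 nucleates stress granules, and in cultured human cells it has been reported to hold the TSC complex, which restrains mTORC1, at the lysosome.

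The E-box core is shown first, as a description. It is known from lysosomal genes, and the set was chosen as known lysosomal genes. Its frequency here is therefore not independent of that choice. Promoter windows, from 250 bases before to 50 bases after each annotated start, were taken from RefSeq (GRCm38.p6), which held 29 windows for 27 of the 32 genes. Npc1, Ctsb, Ctsh, Asah1 and Atp6v1h had no window. CACGTG, which reads the same on both strands, was found in the windows of 11 of the 27 genes (40.7%), against 7.15% of all 32851 windows and 9.75% of the 12466 windows of tested genes. Here and for the longer forms, the set is counted per gene, with a match in any window, and the background per window. The percentages are thus on unlike units, and no background per gene was computed. Ctsa counts through 1 of its windows, while its other window held no core. The overlapping longer forms, searched on both strands, gave 10 genes (37.0%) for TCACGTG, against 3.77% of all windows and 5.86% of those of tested genes. GTCACGTG was found for 8 genes (29.6%), against 2.25% and 3.97%, and TCACGTGA for 6 genes (22.2%), against 0.974% and 1.76%. Below are 30 bases around 1 core in each of the 11 genes, 5′ to 3′ on the gene's strand, with the core in capitals.
Lamp1 (chr8:13159134-13159163, plus strand): acgtgaccacatCACGTGcggaacggagcc
Mcoln1 (chr8:3500462-3500491, plus strand): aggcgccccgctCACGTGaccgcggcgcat
Ctsa (chr2:164833766-164833795, plus strand): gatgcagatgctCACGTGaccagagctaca
Ctsd (chr7:142387908-142387937, minus strand): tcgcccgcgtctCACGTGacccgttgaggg
Ctsl (chr13:64370739-64370768, minus strand): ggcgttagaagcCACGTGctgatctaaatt
Gla (chrX:134601182-134601211, minus strand): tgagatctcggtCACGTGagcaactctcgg
Gaa (chr11:119267811-119267840, plus strand): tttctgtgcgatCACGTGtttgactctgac
Glb1 (chr9:114401018-114401047, plus strand): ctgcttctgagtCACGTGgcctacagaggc
Naglu (chr11:101070009-101070038, plus strand): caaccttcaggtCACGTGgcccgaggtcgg
Atp6v0d1 (chr8:105566050-105566079, minus strand): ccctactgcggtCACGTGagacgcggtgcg
Atp6v1a (chr16:44139373-44139402, minus strand): ttttttttaaatCACGTGataggcttaacg

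Counting the annotated start as 1, with no 0, the core nearest the start began at -3 in Atp6v0d1, at 6 in Ctsa and at -15 in Lamp1. For Ctsa this start lies farther inside the gene (window chr2:164833523-164833822). The window over the beginning of that gene (chr2:164832622-164832921) held no core. The nearest core began at -45 in Mcoln1, -48 in Glb1, -73 in Naglu and -98 in Ctsd, and farther away in Atp6v1a (-131), Gaa (-140), Gla (-194) and Ctsl (-236). These positions count from the start used for the RefSeq window. By the GENCODE gene limits, the printed cores of Mcoln1, Naglu, Ctsd, Atp6v1a and Ctsl also lie inside the annotated gene. For Atp6v0d1, the bases just after the start were not found in an annotated transcript of that gene. Lamp1 held 4 cores within its last stretch before the start, beginning at -61, -45, -28 and -15. Its 250 upstream bases are printed here to show that spacing, again with the cores in capitals.
Lamp1 (chr8:13158911-13159160, plus strand): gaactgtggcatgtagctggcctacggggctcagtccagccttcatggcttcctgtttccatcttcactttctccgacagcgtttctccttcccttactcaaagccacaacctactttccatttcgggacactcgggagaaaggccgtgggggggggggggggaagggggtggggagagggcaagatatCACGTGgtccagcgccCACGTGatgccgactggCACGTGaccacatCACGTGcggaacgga
The 10 tested genes with a core had log2 differences from -0.28 to 0.27 with a median of -0.13, and 7 of them lay below 0. The 16 tested genes whose windows lacked it ran from -0.23 to 0.44 with a median of -0.08, and 9 of them lay below 0. A match here is a string in a window, not a measured binding site.

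Depth was close to even, with totals from 20899135 to 21750007 estimated counts per library. Mitochondrially encoded genes took between 7.22% and 7.64% of the control libraries' counts, against 7.57%, 9.19% and 10.2% in knockout-labelled animals 1, 2 and 3. The deposited files of knockout-labelled replicate 1 treat the effective length of short transcripts differently from the other 5. G3bp1 itself was not detectably lower: it measured 44.1, 34.8 and 40.5 CPM (estimated counts scaled to library size, here with TMM factors) in controls 1, 2 and 3, and 44.0, 30.0 and 31.5 CPM in knockout-labelled animals 1, 2 and 3, and edgeR gave -0.18 on the log2 scale (standard error 0.22, adjusted p = 0.91), or 0.07 with library totals. The animals are therefore called knockout-labelled throughout. TMM factors ran from 0.84 to 1.00 in controls and from 1.07 to 1.14 in knockout-labelled libraries, so the choice of scaling shifts every gene: with library totals in their place the median log2 difference of all genes moved up by 0.26.

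None of the 31 tested lysosomal genes passed the threshold of an adjusted p of 0.05 in edgeR's quasi-likelihood test. Their log2 differences, knockout-labelled minus control, ran from -0.40 (Atp6v1h) to 0.44 (Lipa), with standard errors from 0.19 to 0.38 and adjusted p from 0.845 to 0.999. Over all 12497 genes the same test called 0% higher and 0% lower. At an unadjusted p under 0.05 it took 2.65% of all genes as higher and 1.9% as lower, and 0 of the 31. DESeq2 called 0.048% of all genes higher and 0.04% lower, none of them in the set. The 95% intervals, which together spanned -1.05 to 1.09, lay within 1 log2 unit of 0 for 27 of the 31 genes. For the other 4 genes the interval reaches past 1 log2 unit on at least 1 side.

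The direction of the set as a whole depended on the scaling, while its place among all genes did so less. With TMM factors 21 of the 31 genes lay below 0 (67.7%, against 48.4% of all genes tested) and 10 above, with a median of -0.12 against 0.01 for all genes. With library totals 28 lay above 0 (90.3%, against 78.9%) and 3 below (21.1% of all genes), with a median of 0.13 against 0.27. Against the median of all genes, 23 of the 31 lay below with TMM factors and 22 with library totals, and the set's median was lower by 0.14 and 0.15. Without control replicate 3 the set's median with TMM factors was 0.003, 15 lay below 0 and 16 above, and its distance to the median of all genes was -0.04. With library totals, 10 of the 18 genes described one by one below turned from below 0 to above it: Lamp1, Lamp2, Scarb2, Ctsa, Smpd1, Npc2, Hexa, Man2b1, Grn and Atp6v1a.

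**Figure D1:**
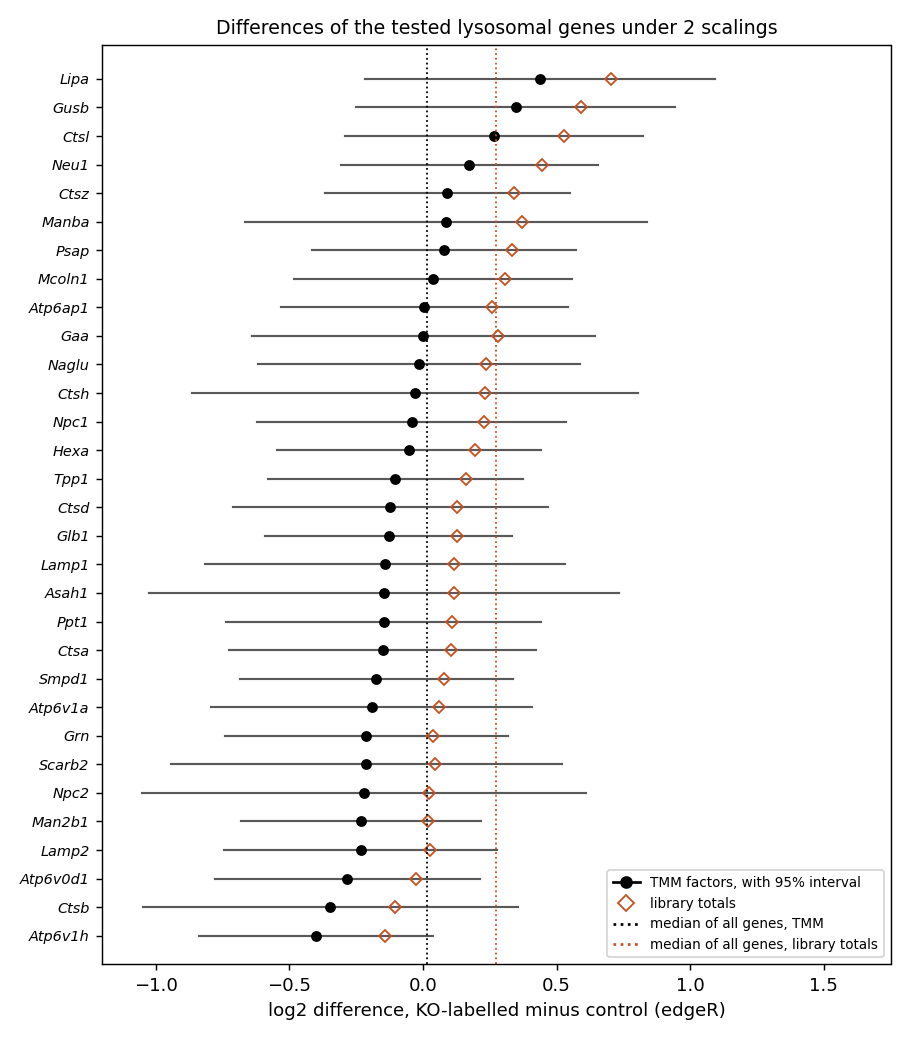
Log2 difference (knockout-labelled minus control, x axis) of each of the 31 tested genes (y axis, ordered by value) from edgeR with TMM factors (black dots, with 95% intervals) and with library totals (open diamonds), and the median of all 12497 genes under each scaling (dotted lines). The dots run from -0.40 for Atp6v1h to 0.44 for Lipa, every interval reaches 0, and library totals move the median of all genes from 0.01 to 0.27.

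As a share of all estimated counts, the 32 genes together took 0.338%, 0.362% and 0.460% in controls 1, 2 and 3, and 0.464%, 0.411% and 0.419% in knockout-labelled animals 1, 2 and 3. Their summed TMM-scaled level was 3753, 4304 and 4591 CPM in the controls and 4297, 3852 and 3682 CPM in the knockout-labelled libraries. On both scales the groups overlapped, and control replicate 1 was the lowest control.

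Macrophages are rich in lysosomes, and their markers were read beside the set. Each of the 15 markers of Kupffer cells and macrophages had a log2 difference under 0 (median -0.61), and none was at 0 counts. Their summed level was 306, 474 and 969 CPM in controls 1, 2 and 3, and 443, 322 and 397 CPM in knockout-labelled animals 1, 2 and 3. In TMM-scaled CPM control replicate 3 was thus the highest for these markers and for the summed lysosomal genes. It was also the highest for the summed markers of hepatocytes (151600 CPM), stellate cells (276 CPM) and neutrophils (15.7 CPM). For endothelial markers it was highest by little, at 149.1 CPM against 148.5 CPM in knockout-labelled replicate 2. The peak was thus not particular to macrophages. Only red blood cell markers were highest elsewhere, in control replicate 1 (1678 CPM). As a share of counts the lysosomal sum was highest in knockout-labelled replicate 1 (0.464% against 0.460%). In summed TPM all 3 knockout-labelled libraries (1724 to 1747) lay above every control, of which control replicate 3 was the highest (1706). TPM leaned this way over all genes tested, with 19.8% higher and 0.328% lower without overlap between groups. All 10 lipid-associated macrophage markers also lay below 0, with a median of -0.49 and sums of 188, 295 and 328 against 211, 185 and 245 CPM. With library totals 13 of the 15 and 7 of the 10 lay below 0, with medians of -0.39 and -0.29. Without control replicate 3, 7 of the 15 lay below 0 and 8 above, with a median of 0.05. Of the 10, 8 still lay below 0 and 2 above, with a median of -0.05. That library thus carried the direction in the first list, and most of the size of the median but not the direction in the second. The part of these cells in the lysosomal values was not tested. In bulk tissue, fewer cells of a type and less RNA per cell cannot be told apart. Red blood cell markers lay below 0 for 5 of 5, with a median of -0.97, and were lowest in knockout-labelled replicates 2 and 3, at 445 and 438 CPM against 727 CPM or more in the other libraries. The 11 of 12 hepatocyte markers found were abundant in every library, as the tissue label says. Their sum was 76965 CPM in knockout-labelled replicate 3 and 118540 to 151600 CPM in the other 5, and their median log2 difference of -0.14 was 0.14 without that replicate.

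Membrane proteins were the first of the roles. Lamp2 (chromosome X, 38401357 to 38456454, minus strand), a major glycoprotein of the lysosomal membrane whose A form is the receptor of chaperone-mediated autophagy, measured 579, 627 and 598 CPM in controls 1, 2 and 3, and 574, 506 and 455 CPM in knockout-labelled animals 1, 2 and 3. The groups did not overlap, although the lowest control (579) and the highest knockout-labelled library (574) were close, and edgeR gave a log2 difference of -0.23, standard error 0.22 (adjusted p = 0.88). Lamp1, its close relative, measured 269, 485 and 514 CPM against 339, 368 and 441 CPM. Control replicate 1 stood well below the other controls, so the groups overlapped, and the log2 difference was -0.14, standard error 0.29. Scarb2, the receptor that carries glucocerebrosidase to the lysosome, had the same shape, with 51.0, 119 and 113 CPM against 73.3, 93.2 and 77.2 CPM and a difference of -0.21 with a standard error of 0.32. Npc1, the cholesterol exporter, ran the other way in the controls, with 132, 92.0 and 71.3 CPM against 96.2, 100.3 and 90.3 CPM. Mcoln1, the lysosomal calcium channel, measured 32.3, 22.3 and 20.8 CPM against 22.0, 26.6 and 29.0 CPM, and both it and Npc1 overlapped between groups.

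The proteases overlapped between the groups as a sum, at 1710, 1906 and 2093 CPM in controls and 2122, 1725 and 1508 CPM in knockout-labelled libraries. Knockout-labelled replicate 1 had the highest sum of all 6 libraries and replicate 3 the lowest. Ctsb (chromosome 14, 63122462 to 63145923, plus strand), the cysteine protease cathepsin B, measured 645, 583 and 779 CPM against 750, 430 and 399 CPM. Knockout-labelled replicates 2 and 3 lay below every control and replicate 1 lay among them, which left a log2 difference of -0.35 with a standard error of 0.31. Ctsl, the cysteine protease cathepsin L, was higher on average, with 263, 384 and 318 CPM against 406, 432 and 323 CPM and a difference of 0.27 with a standard error of 0.24. Ctsa, the carboxypeptidase that also protects neuraminidase and beta-galactosidase, measured 244, 163 and 184 CPM against 219, 164 and 149 CPM, a difference of -0.15 with a standard error of 0.25. The aspartic protease Ctsd measured 235, 287 and 349 CPM against 335, 232 and 233 CPM. The other members, Ctsh, Ctsz and the tripeptidyl peptidase Tpp1, lay between 52.7 and 265 CPM. In all 7 proteases the groups overlapped.

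Among lipid hydrolases and their cofactors, Lipa (chromosome 19, 34492318 to 34527474, minus strand), the acid lipase that cleaves cholesterol esters and triglycerides, had the highest log2 difference in the set. It measured 58.3, 111 and 99.7 CPM in controls 1, 2 and 3, and 94.1, 131 and 139 CPM in knockout-labelled animals 1, 2 and 3, a difference of 0.44 with a standard error of 0.29 and a 95% interval from -0.22 to 1.09. Knockout-labelled replicates 2 and 3 lay above every control and replicate 1 lay within the range of the controls. Psap, the precursor of the saposins that present sphingolipids to their hydrolases, was nearly level, with 314, 328 and 394 CPM against 366, 339 and 388 CPM and a difference of 0.08 with a standard error of 0.22. Npc2, which hands cholesterol to Npc1, measured 23.5, 57.7 and 70.3 CPM against 43.2, 48.4 and 38.5 CPM. Its highest library was 2.99-fold its lowest, both of them controls, and the difference was -0.22 with a standard error of 0.36. Smpd1, acid sphingomyelinase, measured 33.4, 27.0 and 30.9 CPM against 34.8, 23.0 and 23.1 CPM, a difference of -0.17 with a standard error of 0.22. The ceramidase Asah1 ran from 9.5 to 25.5 CPM and the thioesterase Ppt1 from 16.3 to 29.9 CPM, both with control replicate 1 as the lowest library.

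Glycosidases, which strip sugars from glycoproteins, glycolipids and glycogen, divided evenly, with 4 of 8 tested genes above 0 and 4 below and a median of -0.01. Their summed level was 240, 203 and 216 CPM in controls and 219, 212 and 210 CPM in knockout-labelled libraries. Gusb, beta-glucuronidase, measured 6.9, 9.9 and 13.3 CPM against 12.3, 12.9 and 13.1 CPM, so the knockout-labelled libraries agreed closely while the controls spread around them. This gave 0.35 on the log2 scale, standard error 0.26. Man2b1, an alpha-mannosidase, measured 69.6, 50.6 and 67.7 CPM against 53.3, 52.2 and 54.5 CPM, with control replicate 2 below every knockout-labelled library and the other controls above, a difference of -0.23 with a standard error of 0.20. Neu1, the sialidase, measured 24.4, 22.2 and 18.7 CPM against 19.4, 27.5 and 26.8 CPM, a difference of 0.17 with a standard error of 0.21. Hexa, the alpha subunit of beta-hexosaminidase, measured 49.1, 46.1 and 60.5 CPM against 61.2, 44.2 and 44.9 CPM, a difference of -0.05 with a standard error of 0.22. Gaa, the glycogen-cleaving alpha-glucosidase, measured 59.4, 43.2 and 27.0 CPM against 41.8, 45.6 and 42.3 CPM, and its knockout-labelled libraries lay inside the range of the controls. The beta-galactosidase Glb1, the beta-mannosidase Manba and the glucosaminidase Naglu ran from 5.3 to 17.4 CPM. Gla, alpha-galactosidase A (chromosome X, 134588149 to 134601125, minus strand), was listed at 0 counts in all 6 libraries. Whether the 0 comes from the tissue or from the quantification was not tested. Read as a true count, 0 allows up to 0.126 to 0.164 CPM per library (3 counts, counting error only).

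Grn encodes progranulin, which is cleaved into granulins in the lysosome and aids its hydrolases. It measured 147, 112 and 144 CPM in controls 1, 2 and 3, and 144, 102 and 102 CPM in knockout-labelled animals 1, 2 and 3, a difference of -0.21 with a standard error of 0.23. As for Ctsb, Ctsd, Hexa, Smpd1, Glb1 and Atp6v0d1, knockout-labelled replicates 2 and 3 lay below every control and replicate 1 did not.

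The 4 genes of the proton pump summed to 139, 162 and 174 CPM in controls and 134, 138 and 137 CPM in knockout-labelled libraries. Atp6v1h (chromosome 1, 5070018 to 5162529, plus strand), a regulatory subunit of the cytosolic V1 sector, had the lowest log2 difference of the set and the smallest p. It measured 38.5, 36.4 and 41.3 CPM against 25.0, 28.6 and 34.4 CPM, with no overlap, a difference of -0.40 with a standard error of 0.19 and a 95% interval from -0.84 to 0.04 (edgeR adjusted p = 0.845). Atp6v0d1, of the membrane V0 sector, measured 52.2, 53.0 and 50.6 CPM against 54.8, 37.8 and 35.4 CPM. Its controls lay close together, knockout-labelled replicate 1 lay above them and replicates 2 and 3 well below, which gave -0.28 with a standard error of 0.22. Atp6v1a, the catalytic V1 subunit, measured 16.2, 27.4 and 31.4 CPM against 19.0, 22.4 and 24.2 CPM, a difference of -0.19 with a standard error of 0.26. Atp6ap1, an accessory protein, measured 31.8, 45.2 and 50.6 CPM against 35.4, 49.4 and 43.1 CPM and overlapped throughout. Over all 31 genes, Lamp2 and Atp6v1h were the 2 whose groups did not overlap in the lower direction (6.45%, against 4.55% of all genes), and 0 did so in the higher one (4.79% of all genes).

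**Figure D2:**
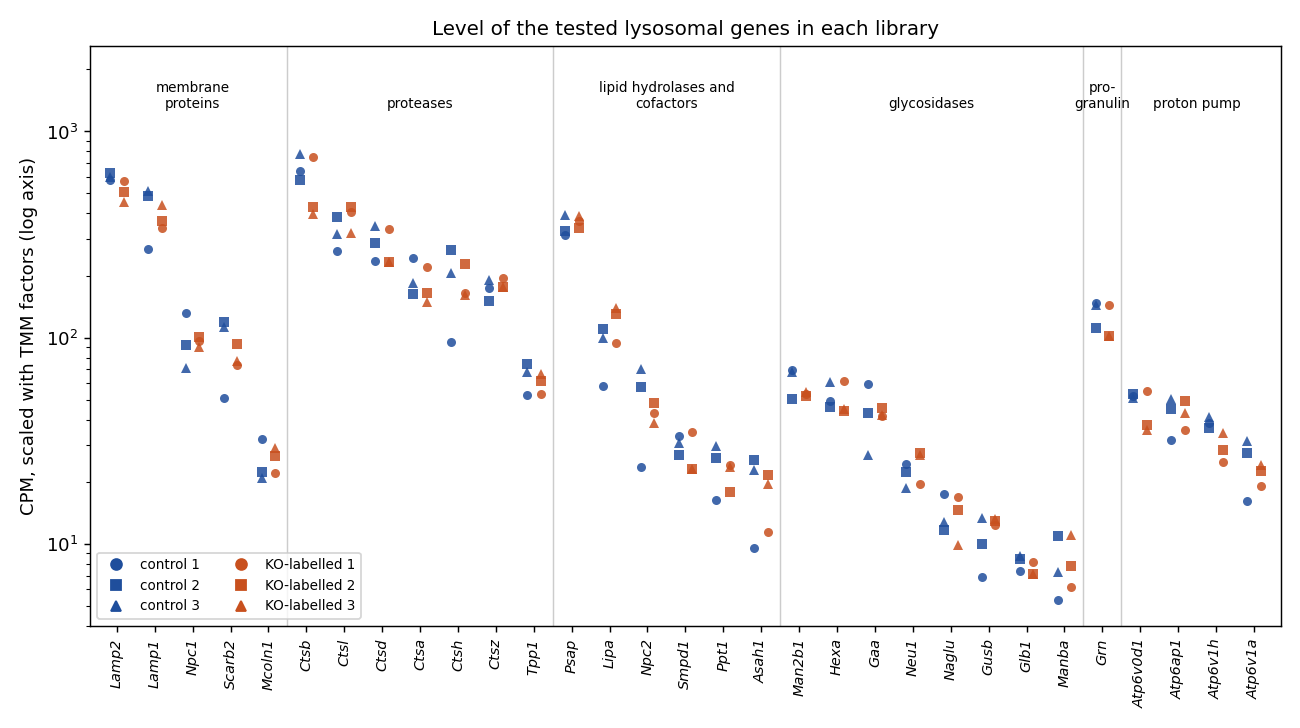
TMM-scaled CPM (y axis, log scale) of the 31 tested genes (x axis, by role and then by level) in each library, with controls in blue and knockout-labelled libraries in orange and the replicate number as the symbol. Control replicate 1 (blue circles) is the lowest library for 14 genes, among them Lamp1, Scarb2, Lipa and Npc2, and the groups overlap for all genes except Lamp2 and Atp6v1h.

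Levels between genes were compared per length, as deposited TPM, a transcript's share of the library after division by its effective length, summed per gene. Averaged over the 6 libraries, Lamp2 was the highest at 244 TPM, then Ctsl (171), Lamp1 (159), Ctsh (130), Psap (119), Ctsd (119), Ctsz (116), Ctsb (102), Ctsa (67.5) and Grn (63.8). In Lamp2 the mean was 235 ± 25.0 in controls and 252 ± 13.5 TPM in knockout-labelled libraries (SD, n = 3 each). Ctsl and Lamp1 were not separable, since Lamp1 was higher in controls (148 ± 56.9 against 127 ± 27.4 TPM) and Ctsl in knockout-labelled libraries (216 ± 36.8 against 170 ± 37.9 TPM; SD, n = 3 each). From Ctsh down to Ctsb, neighbours in this order lay closer together than the SD of each over the controls, which ran from 20.5 to 50.1 TPM. Glb1 (2.78) and Manba (1.89) were the lowest genes above 0. The 10 highest members were thus Lamp1, Lamp2, 6 cathepsins, Psap and Grn. The other membrane proteins were lower, with Npc1 at 34.8, Mcoln1 at 24.0 and Scarb2 at 15.3 TPM, and all 8 detected glycosidases lay at or below the 22.6 TPM of Hexa. These sums take in transcripts not annotated as coding. Such a form took 68.3% to 99.2% of the counts of Npc1, 30.4% to 87.8% of those of Ctsh and 52.6% to 80.4% of those of Asah1. TPM also rests on effective lengths, which knockout-labelled replicate 1 treats differently for short transcripts. Grn had 110 TPM in that library and 37.6 to 74.7 TPM in the others. The part of that treatment in these levels was not tested.

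In the deposited TPM, 5 of 31 genes did not overlap between groups in the higher direction (16.1%, against 19.8% of all genes tested). They were Ctsa, Ctsl, Ctsz, Neu1 and Gaa. None was lower without overlap, against 0.328% of all genes. Ctsl had 95.2, 145 and 140 TPM in controls 1, 2 and 3, and 184, 256 and 207 TPM in knockout-labelled animals 1, 2 and 3. TPM uses no TMM factor, and the share of higher genes was close to that over all genes. The limit on effective lengths in knockout-labelled replicate 1 applies here too. Lamp2, lower without overlap in TMM-scaled CPM, had 215, 227 and 263 against 265, 254 and 238 TPM, so its order of means turned. The turn was not particular to Lamp2. Mean TPM was also higher in knockout-labelled libraries for Lamp1 (148 to 170), Grn (58.8 to 68.8) and Scarb2 (14.6 to 15.9), for example. Of the 31 genes, only Ctsb (102 to 101) and Atp6v1h (14.9 to 14.4) had a lower mean TPM in knockout-labelled libraries.

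The spread among controls had a pattern that crossed the genes. Of the 31, 14 had their lowest value in control replicate 1 (45.2%, against 21.9% of all genes) and 11 their highest in control replicate 3 (35.5%, against 16.5%). The SD over genes of the log2 deviation from each gene's own mean was 0.44 in control replicate 1 and 0.22 to 0.28 in the other 5 libraries. In that library the deviation went with the GC content of the transcripts. The 16 genes at or below 51.6% GC had a median deviation of -0.48 and the 15 above it 0.16. Asah1, at 39.4% GC, Lipa (45.5%) and Scarb2 (46.3%) lay far below their means there, and Gaa (58.9%) and Naglu (59.8%) above. Across the 31 genes, Spearman's rho of deviation with GC content was 0.53, -0.70 and -0.37 in controls 1, 2 and 3, and 0.50, -0.16 and -0.27 in knockout-labelled animals 1, 2 and 3. These are descriptions across genes that share each library. Over all genes the values were 0.35, -0.20 and -0.05 against 0.22, -0.13 and -0.18, of the same sign in each library. With each library's trend over length and GC content removed, the set's median was -0.16, 23 of 31 lay below 0 and none passed the threshold.

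**Figure D3:**
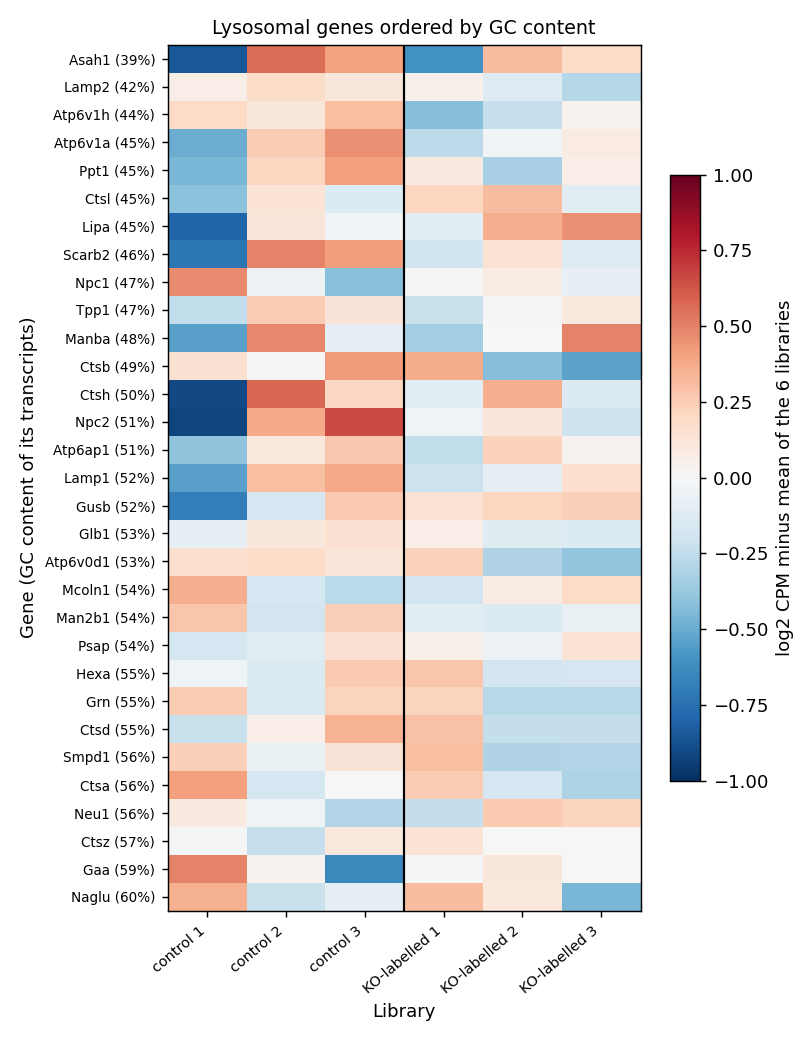
Log2 CPM of each tested gene in each library (columns) minus the gene's mean over the 6 libraries (colour), with genes (rows) ordered from low to high GC content of their transcripts. In control replicate 1 the upper, low-GC rows are mostly blue (median -0.48) and the lower rows mostly red (median 0.16), and the knockout-labelled replicate 1 column shows a weaker form of it.

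The division of each gene's counts among its annotated transcripts also varied, and it did not follow the groups. Of the 32 genes, 18 had at least 2 transcripts that each took 10% or more of the counts in some library. For Ctsd the shorter coding form Ctsd-201 took 86.8%, 10.02% and 43.5% in controls 1, 2 and 3, and 56.3%, 1.5% and 0.0% in knockout-labelled animals 1, 2 and 3. Control replicates 1 and 3 and knockout-labelled replicate 1 were thus high, the other 3 low. In Gusb the form annotated for nonsense-mediated decay, Gusb-206, took 78.5%, 32.1% and 39.4% against 75.0%, 0.0% and 0.0%. Ctsh-202, with the same annotation, took 87.8%, 47.5% and 66.4% against 87.0%, 31.6% and 30.4%.

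In further genes knockout-labelled replicate 1 also lay nearer to control replicate 1 than to the other knockout-labelled libraries. Grn-201, the full coding form, took 54.0%, 96.5% and 88.0% against 33.2%, 97.9% and 96.9%, and the short Grn-210 took most of the remainder in control replicate 1 (33.8%) and knockout-labelled replicate 1 (46.7%). Lipa-201 took 59.6%, 90.8% and 61.3% against 59.7%, 86.5% and 94.7%. A retained intron form of Npc1, Npc1-206, took 99.2%, 92.3% and 95.9% against 98.5%, 72.6% and 68.3%. Psap-202, 1 of 3 coding forms with a sizeable share, took 0.0%, 3.7% and 1.2% against 0.0%, 17.7% and 23.7%. Lamp2 was steadier, with Lamp2-202 between 18.9% and 28.0% in every library.

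Across the 29 genes with several counted transcripts, the median share that moved between a pair of libraries was 0.57 percentage points between control replicate 1 and knockout-labelled replicate 1, of different groups. It was 11.1 points between knockout-labelled replicates 1 and 3, of the same group, and 2.03 between knockout-labelled replicates 2 and 3. Over 11148 genes the same pairs gave 3.51, 12.1 and 4.20 points. The counts of genes that moved by more than 10 points were less uniform than these medians. There were 8 of 29 between control replicate 1 and knockout-labelled replicate 1, 7 between control replicate 3 and knockout-labelled replicate 1, 16 between knockout-labelled replicates 1 and 3, and 1 between knockout-labelled replicates 2 and 3. These shares are descriptions with no test, and the part of this division in the gene values was not tested.

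**Figure D4:**
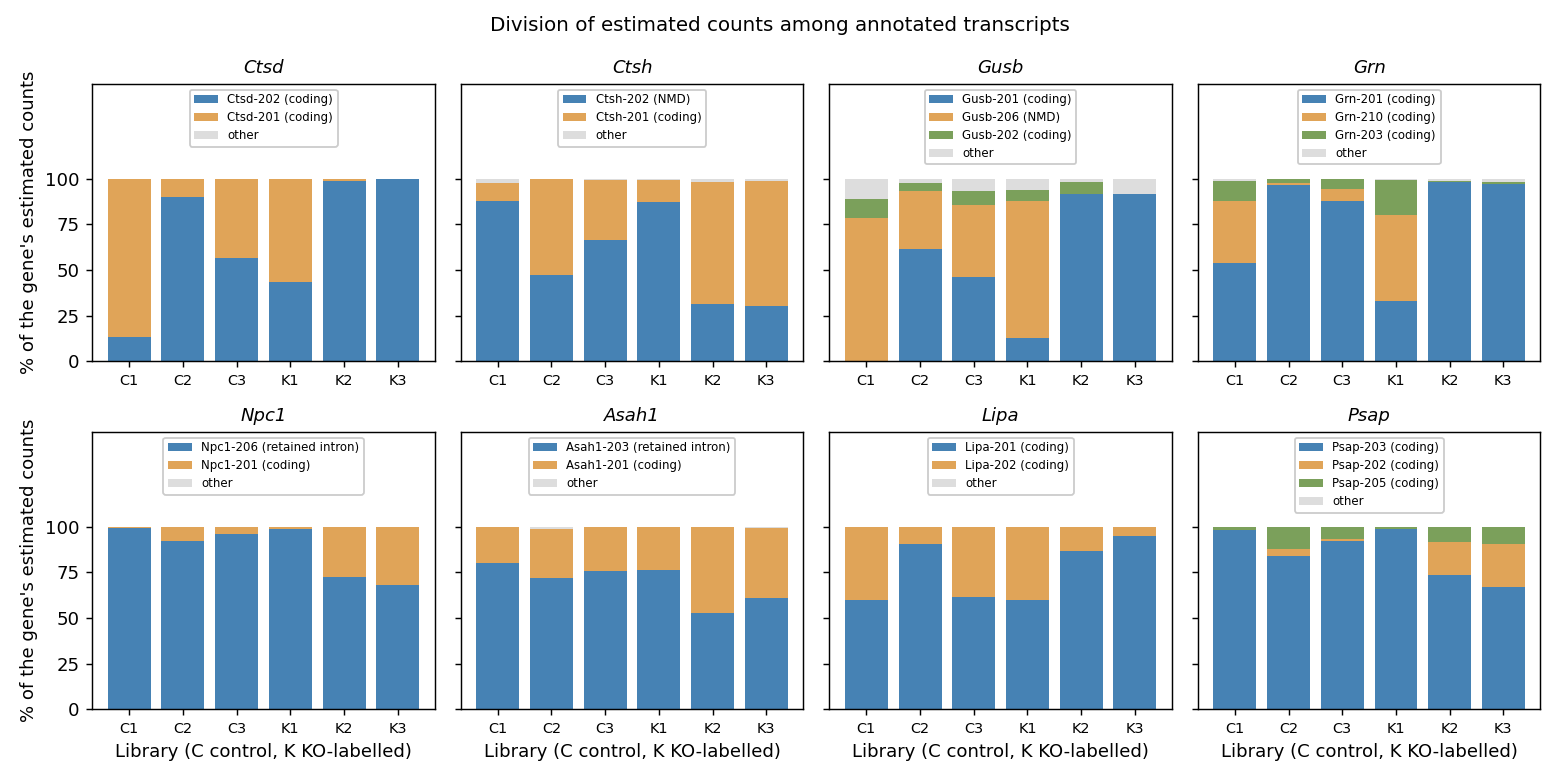
Share of a gene's estimated counts (y axis, %) on each annotated transcript (stacked colours) in control (C1 to C3) and knockout-labelled (K1 to K3) libraries, for 8 genes. K2 and K3 lie close together in Ctsd, Ctsh, Gusb and Grn, and K1 lies nearer to C1 or C3 than to them, as with Ctsh-202 at 87.8% in C1 and 87.0% in K1 against 31.6% and 30.4% in K2 and K3.

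Wider lists of the same pathway were taken from general knowledge of the lysosome. None of their genes passed the threshold in either direction. Of 30 other hydrolases and cofactors, 14 lay above 0 and 16 below, with a median of -0.04 that was 0.22 with library totals and 0.02 without control replicate 3, and with library totals 24 of the 30 lay above 0. Man2b2, an alpha-mannosidase, measured 17.4, 18.3 and 17.0 CPM in controls 1, 2 and 3, and 25.3, 25.0 and 24.0 CPM in knockout-labelled animals 1, 2 and 3, which did not overlap. Its log2 difference was 0.49, standard error 0.16, at an edgeR adjusted p of 0.845, with an SD of 0.66 CPM in controls and 0.70 CPM in knockout-labelled libraries. The hyaluronidase Hyal1 had 0.68 with a standard error of 0.40. Of these 30 genes, 1 was higher (Man2b2) and 1 lower without overlap (3.33% each way, against 4.79% and 4.55% of all genes).

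Of 16 tested other membrane proteins, 5 lay above 0 and 11 below, with a median of -0.09 that was 0.19 with library totals. The tetraspanin Cd63 had a difference of -0.71 with a standard error of 0.59. The cystine exporter Ctns (-0.22, or 0.04 with library totals) was lower without overlap between groups in TMM-scaled CPM. The amino acid sensor Slc38a9 (0.22, or 0.05 with length and GC trends removed) was higher without overlap. Each was 1 of 16 (6.25%), against 4.55% of all genes lower and 4.79% higher. Of 7 genes for mannose 6-phosphate tagging and sorting, 5 lay above 0 and 2 below, with a median of 0.11 that became -0.09 once length and GC trends were removed. Among them Gnptab, a subunit of the tagging enzyme, had 0.40, Nagpa, which uncovers the tag, 0.34, and the receptor Igf2r 0.11, or -0.12 with that trend removed. Both cystatins, inhibitors of the cathepsins, lay below 0, with -0.53 for Cst3 and -0.37 for Cstb. With each library's length and GC trend removed these were -0.24 and 0.07, so Cstb turned.

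Apart from the 2 cystatins, the proton pump had the lowest median of these lists. Of 12 further subunits, 1 lay above 0 and 11 below, with a median of -0.29, and over all 16 pump genes, the 4 above included, 14 lay below 0 with a median of -0.28. With library totals 11 of the 16 lay below 0 with a median of -0.04, against 0.27 for all genes, and with the length and GC trend removed 13 did, with a median of -0.17. Without control replicate 3 the count was 11 and the median -0.17. The summed level of the 16 genes was 767, 770 and 943 CPM in controls 1, 2 and 3, and 765, 620 and 592 CPM in knockout-labelled animals 1, 2 and 3, so that replicate 1 of the latter was almost level with the lower controls. Atp6v1g1, a stalk subunit, measured 56.2, 46.8 and 55.4 CPM against 46.6, 30.9 and 26.9 CPM, without overlap, a difference of -0.60, standard error 0.24, at an edgeR adjusted p of 0.845. It was the 1 of the 12 further subunits that was lower without overlap (8.33%, against 4.55% of all genes). Atp6v1f had -0.57 with a standard error of 0.27, or -0.19 once length and GC trends were removed, and Atp6v1c1 -0.43 with a standard error of 0.20. The pump's sum was highest in control replicate 3, as was the macrophage marker list, at 969 CPM. The same held for every other cell type list read here except that of red blood cells.

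**Figure D5:**
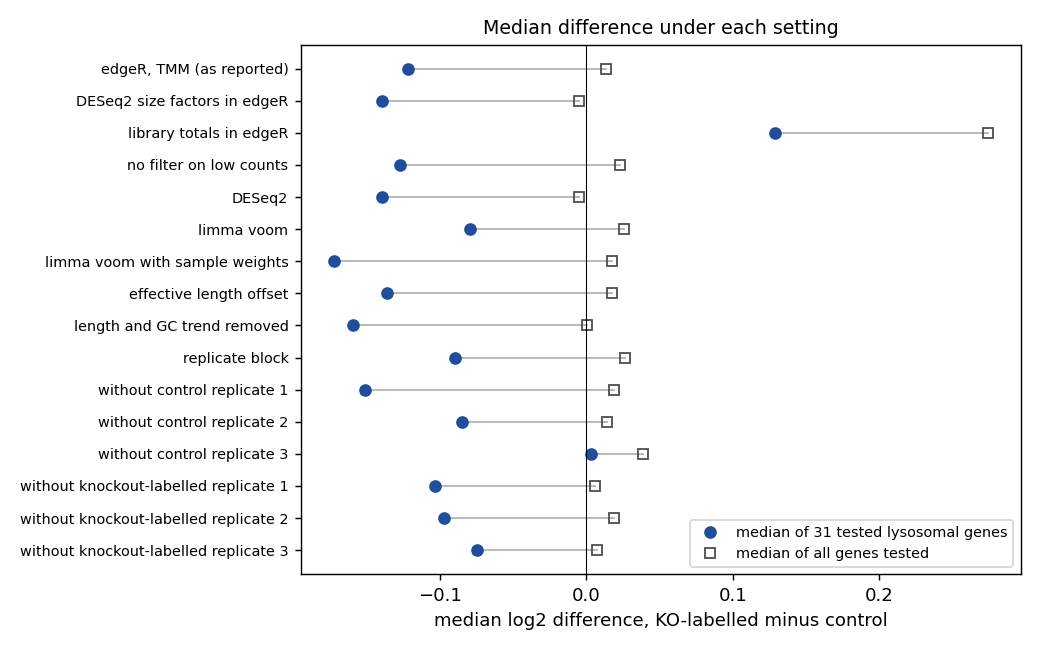
Median log2 difference (x axis, knockout-labelled minus control) of the 31 tested lysosomal genes (filled circles) and of all genes tested (open squares) under each processing setting (y axis). The circles lie left of the squares in every setting, the closest being without control replicate 3 (0.003 against 0.04), and with library totals both lie above 0 (0.13 against 0.27).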

How the data were processed

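Liver RNA of 3 control and 3 knockout-labelled mice, separate animals per the labels, was sequenced as read pairs after poly-A selection, per the labels' protocols. Each deposited file lists the estimated count, TPM, length and effective length of 115221 transcripts in Salmon's column layout, per the file headers, with tool version and options not given in the sources used here. Bowtie2 2.2.5, RSEM 1.2.8, DESeq and GRCm38 are named per the submitters' processing notes, with no role stated. The deposited TPM, per the file headers, is scaled to 1 total within a library. The other deposited values, lengths in bases, are not normalized, per the file headers. GENCODE M21 (GRCm38) gave the gene of each transcript: 113664 matched without their version, 1557 did not and were left out (at most 0.268% of counts).

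Estimated counts were summed per gene, rounded, filtered with filterByExpr, scaled with TMM factors and tested two-sided in edgeR 4.0.16 (R 4.3.3) by quasi-likelihood, with Benjamini-Hochberg adjustment over 12497 genes. Standard errors are the absolute log2 difference over the square root of F. Deviations used log2 CPM with a prior count of 2. Use of strand is not given, and 13 of the 32 genes overlap another annotated gene, among them Lamp1, Ctsa, Ctsb, Ctsd, Ctsl and Atp6v1h, so reads could be shared there.

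The members and lists were chosen with earlier results of these data known, so no p is given for a list. Named members were those with the 3 smallest p and the highest mean TPM in each role and those without overlap between groups, 18 in all, and in each wider list up to 3 with the smallest p. A gene that this rule takes is not reported here. In the wider membrane list Tmem55b was not found and Mcoln3 had too few counts to test. The fit was tested on simulated data. Alternatives were DESeq2 1.42.0, limma 3.58.1 voom with and without sample weights, other scalings, no filter, an effective length offset, removal of length and GC trends (loess, span 0.5, degree 2), the replicate number as a block, each library left out, and TPM scaled to the tested genes.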

Additional observations from a re-analysis of the deposited data

How the results depend on the processing

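No lysosomal gene passed the threshold under any alternative. With library totals the set's median log2 difference was 0.13, and that of the wider lists was 0.22 for hydrolases, 0.19 for membrane proteins, -0.041 for further pump subunits, -0.036 for all pump genes and 0.38 for tagging and sorting. With library totals these genes turned: Atp6v1a 0.062, Ctsa 0.10, Grn 0.038, Hexa 0.19, Lamp1 0.12, Lamp2 0.026, Man2b1 0.019, Npc2 0.022, Scarb2 0.044, Smpd1 0.080, Ctns 0.039 and G3bp1 0.075, and the scaling's own shift of 0.26 is larger than each. Over all genes DESeq2 called 6 higher and 5 lower, where edgeR called 0. Sample weights in voom gave -0.0058 for Psap and -0.030 for the other membrane proteins. The effective length offset gave 0.0056 for Ctsa. With length and GC trends removed, Psap was -0.0086, Igf2r -0.12, Cstb 0.071, the tagging list -0.092 and the cystatins -0.083, and the cause was not tested.

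With each library left out in turn, genes past the threshold ranged from 0 to 2 higher and from 0 to 1 lower, the highest counts being without knockout-labelled replicate 1. The set's median ranged from -0.15 to 0.0034 and its distance to all genes from -0.17 to -0.036, the upper ends being without control replicate 3. The other membrane proteins ranged from -0.16 to -0.015. Ranges that crossed 0 were -0.43 to 0.015 for Atp6v1a, -0.34 to 0.033 for Ctsa, -0.23 to 0.079 for Hexa, -0.39 to 0.030 for Lamp1 and -0.56 to 0.10 for Npc2. Deviations of same-numbered libraries correlated at 0.20, 0.27 and -0.14, within the range of -0.43 to 0.34 of differently numbered ones. With 3 libraries a group, these values cannot decide whether the replicate numbers pair the animals. With the replicate block 0 genes were called and the set's median was -0.09. The median of the other hydrolases, -0.039 as reported, lay just above 0 in limma voom (0.0024), with the replicate block (0.0013) and without control replicate 2 (0.054) or 3 (0.020). The remaining single-gene differences kept their direction and side of the threshold, and the remaining summaries moved by less than the spread between animals or by less than 1.5 times. With 3 animals a group, the spread between them and the depth of low genes limit the precision.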
